A study of Mus musculus with 4 samples.

Results

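The oxidative phosphorylation machinery was followed through 45 nuclear genes in mouse embryonic fibroblasts (MEFs) with and without induced Mitf. The genes form a list of names, set by respiratory complex, out of all 22835 genes of the deposited exon table. The rule uses no measured value, although the list was drawn up with earlier results of these data known. They comprise 20 subunit genes of complex I, 4 of complex II, 6 of complex III, the cytochrome c gene Cycs, 10 of complex IV and 4 of ATP synthase, with 357 listed exons in all. RNA-seq was available as 1 library for each condition. The library labelled MEF came from wild-type MEFs at passage 3. The Dox (-) and Dox (+) libraries came from Mitf knock-in MEFs at passage 5, and Dox (+) cells had received doxycycline (Dox) for 6 days. Both knock-in libraries carry the same alleles, ROSA26-M2rtTA, which makes the Dox-dependent activator, and Col1a1-TetO-Mitf, which makes the melanocyte isoform of Mitf when Dox is present, together with an mCherry marker, and the wild-type MEFs carry none of these. The knock-in cells descend from 1 targeted clone of KH2 embryonic stem cells that was injected into host blastocysts, so these MEFs came from chimeric embryos. The study describes mCherry and puromycin resistance as the means of separating transgenic from host cells, and the share of host cells left in each library is not given in the sources used here. The number of embryos behind each library is not given in the sources used here. Primary melanocytes, the remaining sample of the series, were not analysed here.

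Oxidative phosphorylation makes most of the ATP of a resting cell. Complex I takes electrons from NADH and complex II from succinate, both pass them to ubiquinone, complex III hands them to cytochrome c, and complex IV gives them to oxygen. The protons pumped on the way drive ATP synthase. A few core subunits are encoded by mitochondrial DNA, and the great majority, all of those followed here included, are encoded in the nucleus and imported. In melanocytes MITF is known to act on this system through the coactivator PGC-1alpha, the product of Ppargc1a. The nuclear respiratory factor NRF1, ETS factors such as GABPA, and YY1 are the textbook regulators of the nuclear subunit genes.

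The windows upstream of 5 of these genes are shown because they carry, or lack, the short motifs of the factors named above, including the E-box bound by MITF. Each is the last 200 bases before the start site, read from RefSeq on GRCm38.p6, the same build as mm10, and written 5′ to 3′ on the gene's own strand. Capitals mark every match, on either strand, to CACGTG (E-box), CATGTG (an E-box variant), GCATGCGC (NRF1 core), CCGGAAG (ETS core) and AAGATGGC (YY1).
Cycs, chr6:50566570-50566769, minus strand: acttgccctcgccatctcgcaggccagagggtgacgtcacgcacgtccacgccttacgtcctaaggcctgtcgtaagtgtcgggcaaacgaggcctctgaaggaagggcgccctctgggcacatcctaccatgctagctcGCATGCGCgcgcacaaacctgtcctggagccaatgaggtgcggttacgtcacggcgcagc
Cox6a1, chr5:115348959-115349158, minus strand: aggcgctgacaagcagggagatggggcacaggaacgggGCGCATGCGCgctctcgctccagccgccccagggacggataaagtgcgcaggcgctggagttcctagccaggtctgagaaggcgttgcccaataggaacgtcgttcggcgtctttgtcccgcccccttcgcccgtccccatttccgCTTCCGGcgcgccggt
Sdhb, chr4:140961071-140961270, plus strand: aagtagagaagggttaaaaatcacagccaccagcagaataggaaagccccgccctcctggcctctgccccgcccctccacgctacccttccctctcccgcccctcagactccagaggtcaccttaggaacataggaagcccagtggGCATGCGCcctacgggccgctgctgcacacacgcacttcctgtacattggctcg
Ndufv1, chr19:4012756-4012955, minus strand: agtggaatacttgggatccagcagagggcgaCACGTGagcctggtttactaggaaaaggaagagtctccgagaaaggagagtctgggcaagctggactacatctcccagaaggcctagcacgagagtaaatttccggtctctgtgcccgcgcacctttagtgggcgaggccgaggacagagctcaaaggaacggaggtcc
Atp5b, chr10:128083107-128083306, plus strand: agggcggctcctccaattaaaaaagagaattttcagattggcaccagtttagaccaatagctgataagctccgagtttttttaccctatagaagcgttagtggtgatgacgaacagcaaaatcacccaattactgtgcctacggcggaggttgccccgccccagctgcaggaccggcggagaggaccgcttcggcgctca

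Of the 45 genes, 34 had a RefSeq window of 300 bases, 250 before the start site and 50 after it. GCATGCGC occurred in the windows of 6 of these 34 genes (17.6%), Cox6a1, Cycs, Ndufa6, Ndufa8, Sdhb and Uqcrc1, against 5.95% of 9355 other genes above 10 RPKM and 3.05% of all 27025 genes with a window. In Cox6a1 the 10 capitals at the left hold matches on both strands that overlap. CCGGAAG occurred in 7 of 34 (20.6%) against 20.3% of the other expressed genes, and AAGATGGC in 4 of 34 (11.8%) against 5.33%. The E-box CACGTG occurred in 1 of 34 windows (2.94%), that of Ndufv1, against 11.7% of the other expressed genes, and CATGTG in 3 of 34 (8.82%), those of Atp5o, Cox5b and Ndufb8, against 10.6%. Atp5b held none of the 5 motifs. A match describes letters in this window only.

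Levels are given as RPKM, reads per kb of exon scaled to the aligned reads of the library, and the level of a gene is that of its highest exon, as in the study. The RPKM steps of lowly covered exons gave depths of 45000000 reads for MEF, 45000000 for Dox (-) and 44000000 for Dox (+). All 45 genes were above 10 RPKM in every library. Differences are on the log2 scale after adding 1 RPKM, and the errors given are 95% counting errors of the reads on that exon. No condition has a second library, so there is no p-value, and these errors leave out all variation between cultures. The half-width of the counting error had a median over the genes of 0.0943 and a maximum of 0.173 in the comparison of Dox (+) with Dox (-).

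Most of the 45 genes had their highest level in the Mitf-induced library and were lower in untreated knock-in MEFs than in wild-type MEFs. Dox (+) was above Dox (-) for 43 of 45 genes (95.6%, beside 62.6% of all genes), with a median log2 difference of 0.65, beside 0.23 for the 13307 genes that passed 10 RPKM in either library. Dox (+) was above MEF for 34 of 45 genes (75.6%, beside 63.3% of all genes), with a median of 0.41 beside 0.27. Dox (-) was below MEF for 38 of 45 genes. The median was -0.33, beside 0.01 for all genes and -0.12 for genes above 100 RPKM in either library. Dox (-) was above MEF for 7 genes (15.6%, beside 50.6% of all genes). These were Ndufa2, Ndufs7, Sdhd, Uqcrq, Cox5b, Cox6a1 and Cox8a. These comparisons share libraries, so the median of any one of them is not independent of the others. The median level of the 45 genes was 512 RPKM in MEF, 382 RPKM in Dox (-) and 656 RPKM in Dox (+). They took 0.563%, 0.419% and 0.624% of the reads summed over all distinct exons. A read can count on more than 1 exon in that sum, so these are not shares of the reads of a library.

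**Figure D1:**
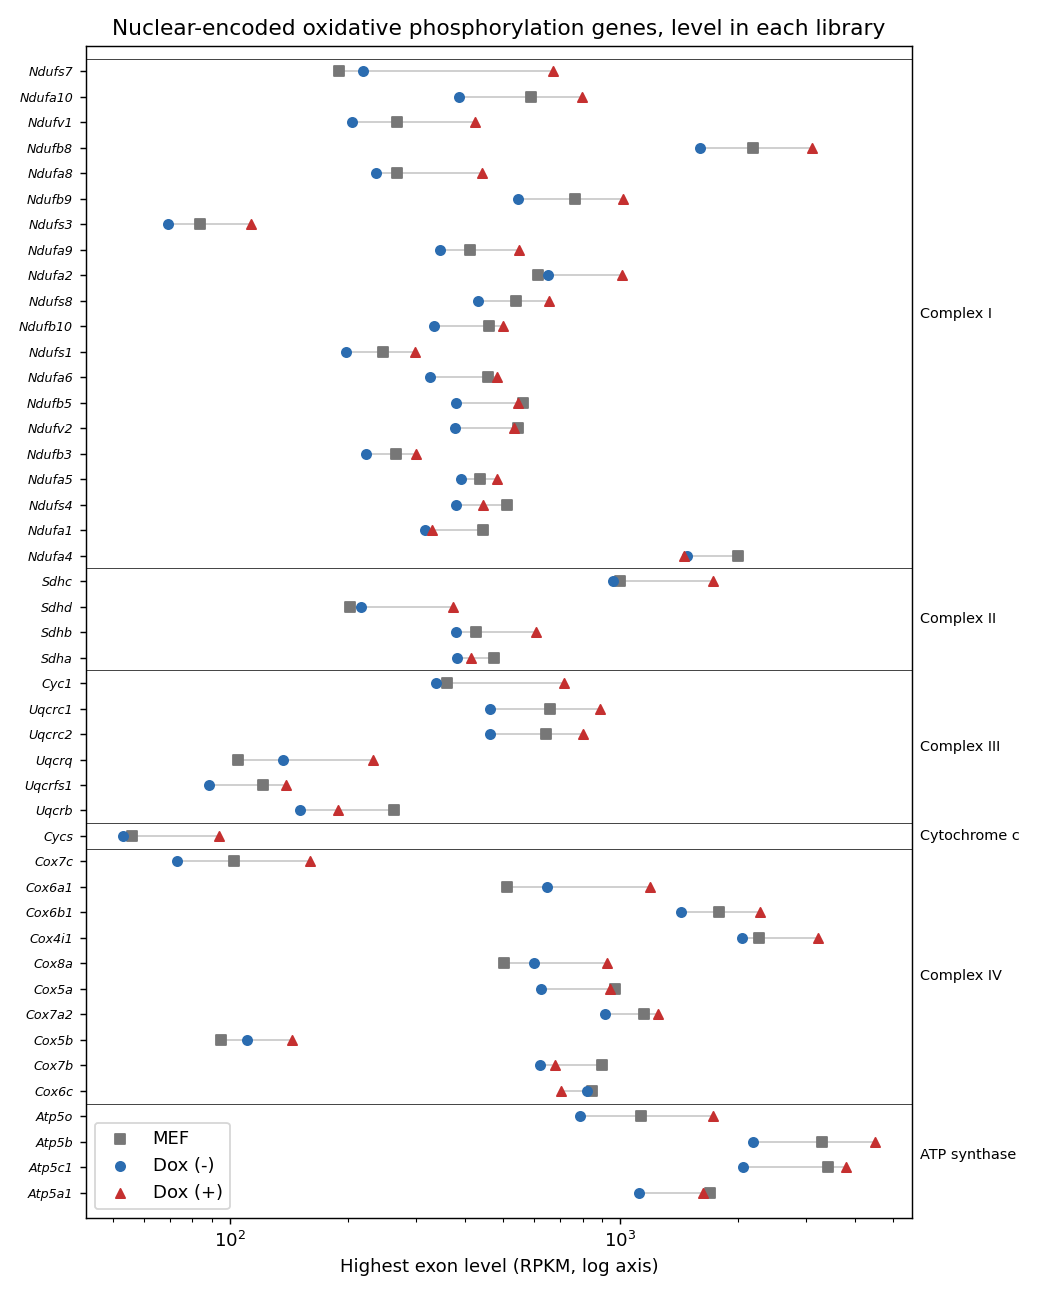
Level of each of the 45 genes in the MEF (grey squares), Dox (-) (blue circles) and Dox (+) (red triangles) library, as the RPKM of the highest exon on a log axis, grouped by complex. Dox (+) lies to the right of Dox (-) for 43 genes, and Ndufa4 and Cox6c are the exceptions.

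The size of the difference was modest for nearly every gene. Relative to Dox (-), 7 genes were past 2-fold upward in Dox (+), or 15.6%, where 10.8% of all genes were, and none was more than 2-fold lower, where 11.1% of all genes were. Relative to MEF, 3 genes were past 2-fold upward in Dox (+), or 6.67% against 20.2% of all genes, and none was lower, against 8.98%. Between Dox (-) and MEF no gene was past 2-fold in either direction, where 17.3% of all genes were higher and 7.93% lower. The middle 50% of the 45 genes lay between 0.50 and 0.88 in Dox (+) against Dox (-), where all genes spanned -0.29 to 0.64. Genes above 100 RPKM in Dox (+) or Dox (-), of which there were 6352, had a median of 0.39. Of them, 12.8% were more than 2-fold higher and 6.56% more than 2-fold lower.

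**Figure D2:**
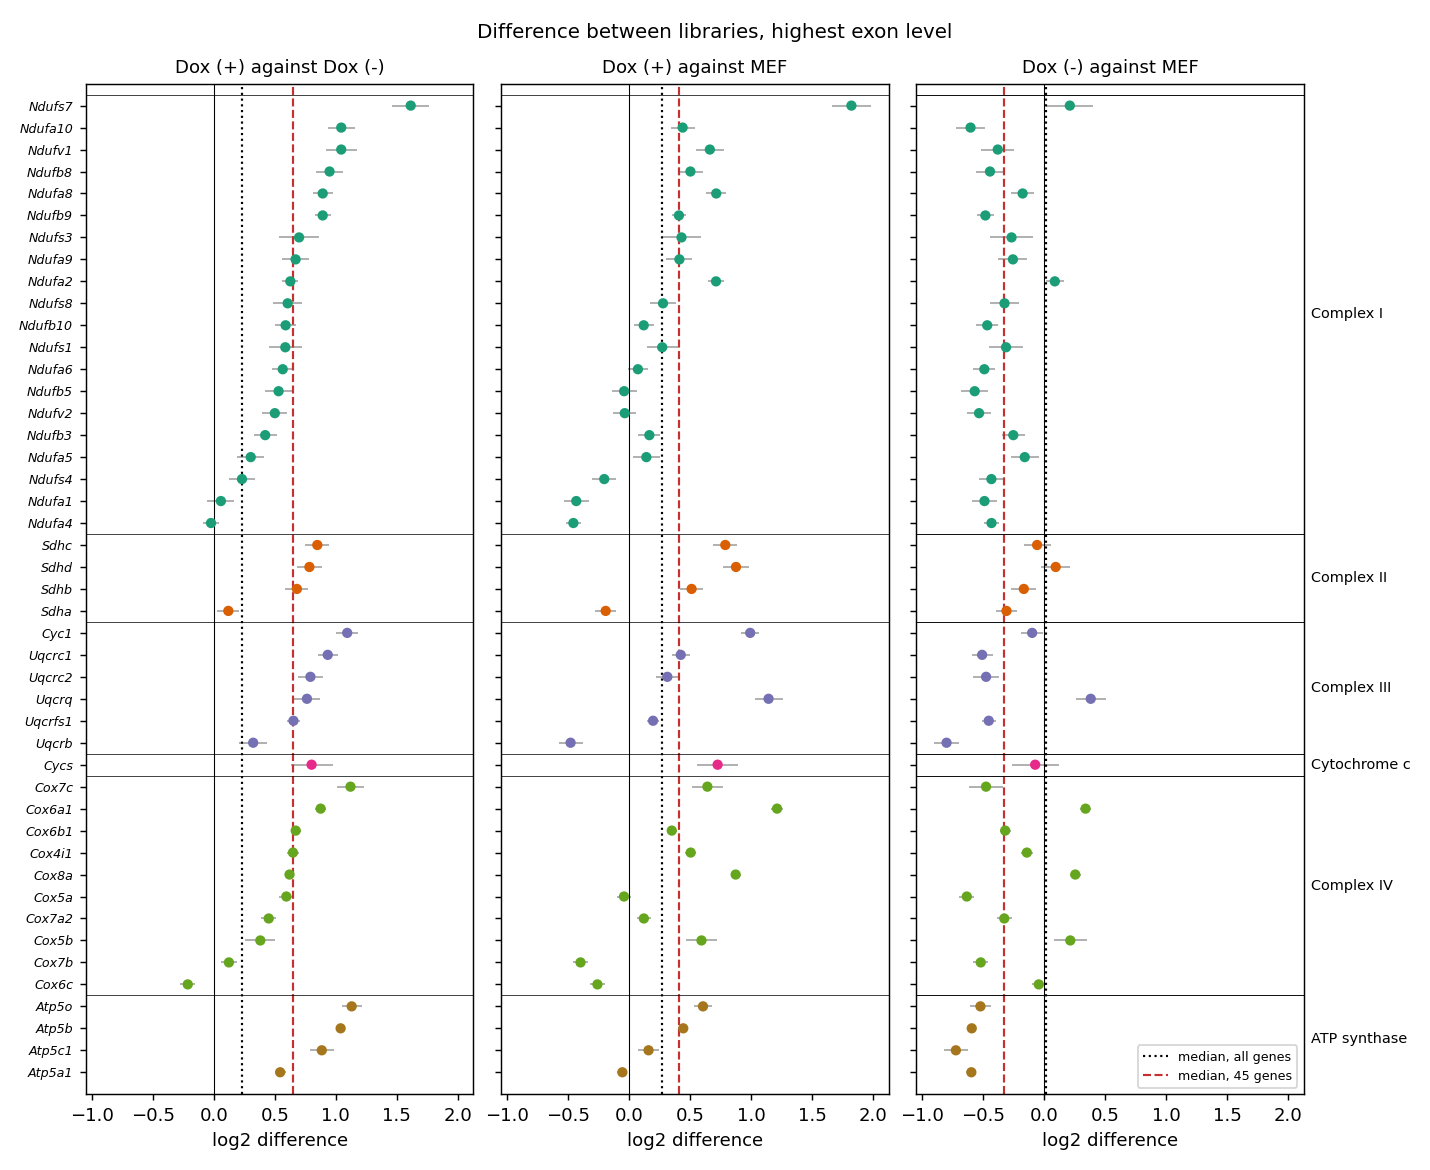
Log2 difference of each of the 45 genes in the 3 comparisons of libraries, from the highest exon, with bars for the 95% counting error. The dashed red line is the median of the 45 genes (0.65, 0.41 and -0.33) and the dotted line that of all genes (0.23, 0.27 and 0.01).

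Scaling bears on all of these values, since the median gene was itself higher in Dox (+). With the libraries rescaled so that the median gene above 10 RPKM had equal levels, the median of the 45 genes was 0.37 for Dox (+) against Dox (-), 0.16 for Dox (+) against MEF and -0.29 for Dox (-) against MEF. Dox (+) was then above Dox (-) for 39 genes, with Ndufa1, Ndufs4, Sdha and Cox7b changing sign, and above MEF for 27 genes, with Ndufa5, Ndufa6, Ndufb3, Ndufb10, Uqcrfs1, Cox7a2 and Atp5c1 changing sign. Dox (-) remained below MEF for 38 genes. The shares of all genes given above are from before rescaling.

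Cell type markers differed between the libraries far more than the 45 genes did. All 8 macrophage markers were past 2-fold higher in Dox (-) than in either other library, with a summed level of 51.0 RPKM in MEF, 12978 RPKM in Dox (-) and 469.99 RPKM in Dox (+). Lyz2, the lysozyme gene, stood at 27.8, 10820.0 and 379 RPKM, and Ptprc, which marks all leukocytes, was below 1 RPKM in both MEF and Dox (+), at 0.0655 and 0.77 RPKM. In Dox (+) against MEF, 4 of the 8 macrophage markers passed 10 RPKM, all 4 were higher in Dox (+), 3 of them past 2-fold, and their median log2 difference was 2.62. The 8 fibroblast markers summed to 19669, 52657 and 13058 RPKM, with 6 of them more than 2-fold lower in Dox (+) than in Dox (-). Against MEF the 8 were split in Dox (+), with 4 more than 2-fold higher, 3 more than 2-fold lower and a median log2 difference of 0.59. In Dox (-), 7 of the 8 were more than 2-fold higher than in MEF. Of 9 melanocyte markers, 3 passed 10 RPKM in Dox (+), namely Tyrp1, Mlana and Pmel, and none in the other libraries, and Oca2 was listed at 0 in all 3. Des and Tnnt2, 2 of 6 muscle markers, were high in Dox (+), at 1805 and 268 RPKM. Both were also higher in Dox (-) than in MEF, by 3.28 to 5.50 on the log2 scale, and higher in Dox (+) than in Dox (-), by 1.66 to 1.99. Myod1, Myog, Actn2 and Myh6 stayed below 1 RPKM in every library. Of 5 keratinocyte markers only Krt14 passed 10 RPKM, at 32.8, 2.12 and 26.9 RPKM. The induced gene Mitf stood at 1.52, 30.8 and 1544 RPKM. The part of these other cells in the levels of the 45 genes was not tested, and in bulk RNA fewer cells of a type cannot be told apart from less RNA per cell.

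Complex I was the largest group. Its 20 genes had a median log2 difference of 0.60 in Dox (+) against Dox (-), with 19 of 20 higher, and of 0.27 against MEF, with 15 of 20 higher. Dox (-) was below MEF for 18 of 20, with a median of -0.41. Levels ran from 83.6 RPKM for Ndufs3 to 2186 RPKM for Ndufb8 in MEF.

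Ndufs7, which carries the last iron-sulfur cluster before ubiquinone, stood apart from the other 44 genes. Its level was 189.6 RPKM in MEF, 219 RPKM in Dox (-) and 674 RPKM in Dox (+), on a coding exon of 47 bases at chr10:80255090-80255136 in mm10. The wild-type and uninduced libraries were thus close, and the induced one was the high library. Dox (+) was 3.07-fold above Dox (-), with a counting interval of 2.76 to 3.42, and 3.55-fold above MEF, with 3.18 to 3.98. All 8 of its exons with at least 100 reads were higher in Dox (+) than in Dox (-), by 1.44 to 2.66 on the log2 scale. Ndufs8, the neighbouring iron-sulfur subunit, had levels of 541, 431 and 656 RPKM and a log2 difference of 0.60.

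The NADH-oxidising arm of complex I is formed by Ndufv1, which binds flavin mononucleotide and NADH, with Ndufv2 and Ndufs1. Ndufv1 had 268 RPKM in MEF, 206 in Dox (-) and 425 in Dox (+), which was 2.07-fold above Dox (-) (1.89 to 2.26), and all 17 of its counted exons were higher. Ndufv2 had 546, 376 and 532 RPKM, so that Dox (+) was 0.50 above Dox (-) on the log2 scale but 0.04 below MEF, and 1.27-fold above Dox (-) (1.18 to 1.37) on the same exon in both. Ndufs1 had 247, 199 and 299 RPKM, a difference of 0.59 from Dox (-) that came to 0.33 when all its exons were summed. Ndufs3, another core subunit and the lowest gene of complex I, had 83.6, 69.2 and 113 RPKM.

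Among the accessory subunits Ndufa10 was past 2-fold, with 589 RPKM in MEF, 387 in Dox (-) and 798 in Dox (+), a fold of 2.06 (1.91 to 2.23). Ndufb8, used as a stability marker of complex I in immunoblots, had the highest level of the complex by its highest exon, at 2186, 1605 and 3097 RPKM, but that exon is only 14 bases long. Summed over all its exons Ndufb8 stood at 118, 93.3 and 181 RPKM, with nearly the same log2 difference (0.95 by both measures). Ndufa8 (268, 237 and 441 RPKM) and Ndufb9 (764, 546 and 1014 RPKM) were close to it, both with a difference of 0.89, and the remaining accessory genes lay between -0.02 and 0.67.

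Ndufa1 and Ndufa4 showed almost no difference between the knock-in libraries. Ndufa1, a small membrane subunit, had 445 RPKM in MEF, 317 in Dox (-) and 329 in Dox (+), and the interval of its fold, 0.96 to 1.12, includes 1. Ndufa4, named as a complex I protein and since found in complex IV, had 1999.6, 1481 and 1456 RPKM, a fold of 0.98 (0.94 to 1.03), and its sign turned, to 0.04 on the log2 scale, with exons of at least 100 bases. Both knock-in libraries were below MEF for these genes, by 0.43 to 0.49 on the log2 scale. Ndufs4, an accessory subunit near the NADH-oxidising arm, had 512, 379 and 444 RPKM, a difference of 0.23 from Dox (-), equal to the all-gene median. Ndufa5 had 437, 391 and 482 RPKM, and 3 of its 6 counted exons were higher in Dox (+) and 3 lower.

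Complex II has only nuclear subunits, and its 4 genes did not move alike. The membrane anchor Sdhc had 999 RPKM in MEF, 959 in Dox (-) and 1726 in Dox (+), on an exon of 30 bases, and a log2 difference of 0.85. The other anchor, Sdhd, had 203, 216 and 373 RPKM (0.78), and the iron-sulfur subunit Sdhb had 427, 380.1 and 609.7 RPKM (0.68). The flavoprotein Sdha, which oxidises succinate, differed least, with 474, 382 and 415 RPKM (0.12), and its 15 counted exons ranged from -0.08 to 0.77. With reads summed over exons the difference of Sdha was 0.28. The 4 genes had a median of 0.73 against Dox (-), 0.65 against MEF, and -0.11 for Dox (-) against MEF, and none was past 2-fold.

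Complex III showed a median log2 difference of 0.78 in Dox (+) against Dox (-), with all 6 genes higher. Cyc1, the cytochrome c1 that reduces cytochrome c, had 360.1 RPKM in MEF, 336 in Dox (-) and 718 in Dox (+). It was 2.14-fold above Dox (-) (2.01 to 2.27), and MEF and Dox (-) were near each other. The core proteins Uqcrc1 and Uqcrc2 had 661, 464 and 886 RPKM (0.93, or 1.08 and past 2-fold with reads summed over exons) and 645, 463 and 802 RPKM (0.79). Uqcrfs1, the Rieske iron-sulfur protein, had 121, 88.2 and 139 RPKM (0.65). Uqcrb, a small subunit at the ubiquinone site, differed least, with 263, 150.6 and 188 RPKM (0.32), and its Dox (+) level was 0.48 below MEF. Uqcrq, another small subunit, went the other way, with 105, 137 and 233 RPKM, so that Dox (+) was 2.22-fold above MEF, or 1.99-fold (1.83 to 2.15) on the same exon in both.

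Cycs, the mobile carrier between complexes III and IV, had the lowest highest-exon level of the 45 genes in every library, at 56.1 RPKM in MEF, 53.2 in Dox (-) and 93.5 in Dox (+). Its fold over Dox (-) was 1.76 (1.56 to 1.98) on that exon. Summed over its exons the log2 difference was 0.41, against 0.80 on the highest exon. Of its 50-base windows, 26.1% also occur in transcripts of other genes.

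Complex IV held the lowest difference of the 45 genes. Its 10 genes had a median log2 difference of 0.61 from Dox (-), with 9 of 10 higher, and of 0.43 from MEF, with 7 of 10 higher. Cox4i1, the largest nuclear subunit and the highest gene of the complex, had 2260.2 RPKM in MEF, 2047 in Dox (-) and 3208 in Dox (+), a difference of 0.65. Cox7c was 2.19-fold above Dox (-) (2.03 to 2.36) on an exon of 304 bases at chr13:86046601-86046904, coding and UTR, with 73.2 RPKM in Dox (-) and 160.4 in Dox (+). The highest exon in MEF was another one, at 102 RPKM. On the exon of 304 bases MEF had 986 reads and Dox (-) 1002, a fold of 1.016 (0.93 to 1.11), and Dox (+) was 2.22-fold above MEF (2.06 to 2.402). With the reads of all exons summed, Cox7c was at 0.89 and no longer past 2-fold, and 22.1% of its 50-base windows are shared with other genes.

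Cox6a1 had the largest difference of complex IV from wild-type cells, at 512 RPKM in MEF, 648 in Dox (-) and 1189.8 in Dox (+), which was 2.32-fold, or 2.47-fold (2.37 to 2.57) on the same exon in both. Cox8a (502, 599 and 922 RPKM) and Cox5b (94.9, 110.2 and 144 RPKM) had the same order of the 3 libraries as Cox6a1, with MEF lowest. Cox5a (971, 624 and 943 RPKM) and Cox7b (896, 624 and 679.6 RPKM) instead had MEF highest. For Cox5a the interval of Dox (+) over MEF, 0.934 to 1.0096, includes 1, and with reads summed over exons Dox (+) was above MEF, at 512 against 487 RPKM.

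Before rescaling, Cox6c was the only gene of the 45 that was lower in Dox (+) than in Dox (-) beyond counting error. With the libraries rescaled by the median ratio, others were too, among them Ndufa4 (-0.31), Ndufa1 (-0.23) and Sdha (-0.17) on the log2 scale. Cox6c had 846 RPKM in MEF, 819.8 in Dox (-) and 706 in Dox (+), a fold of 0.86 (0.83 to 0.90). All 7 of its counted exons were lower in Dox (+), by 0.11 to 0.29 on the log2 scale.

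Within the 45 genes, ATP synthase gave the highest levels. Among their groups of more than 1 gene it had the largest median difference from Dox (-), 0.96 over 4 genes, all of them higher. That rank was not seen in the subunits outside the 45 genes. There the median was 0.61 for 13 ATP synthase genes, beside 0.72 for 17 of complex I and 0.73 for 3 of complex III. Atp5b, the catalytic beta subunit, had 3296 RPKM in MEF, 2182 in Dox (-) and 4485 in Dox (+), or 1739, 1245 and 2486 RPKM summed over exons, the highest of the 45 genes by that measure. Its fold was 2.06 (2.01 to 2.10), resting on 11978 and 24073 reads, and all 9 counted exons were higher, but with reads summed over exons it was just under 2-fold, at 0.997 on the log2 scale. Atp5o, the stalk subunit that links the catalytic head to the membrane part, had 1132, 787 and 1724 RPKM, a fold of 2.19 (2.07 to 2.32), but 41.6% of its 50-base windows also occur in other transcripts, so its reads may come in part from copies, and with reads summed over exons it was at 0.96, under 2-fold. Atp5c1, the rotating gamma shaft, had 3402, 2057 and 3799 RPKM on an exon of 14 bases and 258, 173 and 313 RPKM summed over exons (0.88 and 0.85 on the log2 scale). Atp5a1, the alpha subunit, differed least, with 1696, 1119.6 and 1632 RPKM (0.54). All 4 were lower in Dox (-) than in MEF, by 0.52 to 0.73.

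Nearly all exons of these genes, the highest ones included, differed in the same direction between Dox (+) and Dox (-). In the 331 exons of the 45 genes with at least 100 reads in Dox (+) or Dox (-), 317 (95.8%) were higher in Dox (+), and in 40 of 45 genes every such exon was. Against MEF, 270 of 331 (81.6%) were higher in Dox (+), and 45 of 325 (13.8%) were higher in Dox (-) than in MEF. Of all genes above 100 RPKM in either library, 73.2%, 65.0% and 43.0% were higher in the same comparisons, and no share over all exons is given here. Overlapping exons of a gene can share reads, so these exons are not independent. With reads summed over all exons, medians were 0.66, 0.41 and -0.34, Dox (+) was above MEF for 37 genes, and Pearson's r between the differences of the 2 measures was 0.95, 0.95 and 0.94 across the 45 genes, which share reads between the measures. The highest exon was coding in 26 genes and coding with UTR in 19, and was under 100 bases in 21. Among the 21 genes with no 50-base window shared with another gene, the median difference from Dox (-) was 0.62.

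**Figure D3:**
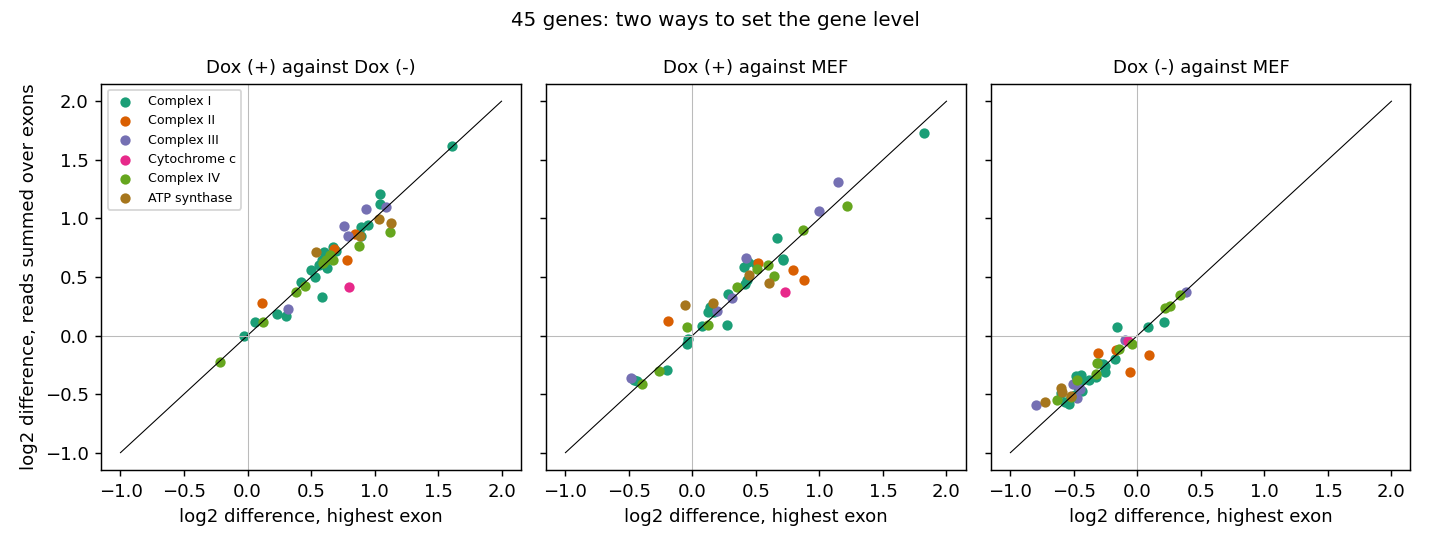
Log2 difference of the 45 genes from the highest exon (horizontal axis) and from reads summed over distinct exons (vertical axis), in the 3 comparisons, coloured by complex, with the line of equality. Points lie near the line, with medians of 0.65 and 0.66, 0.41 and 0.41, and -0.33 and -0.34.

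Exons at the 5′ and 3′ ends did not give the same size of difference. The first counted exon had a median log2 difference of 0.86 in Dox (+) against Dox (-) and the last counted exon one of 0.57. In Dox (+) against MEF these were 0.73 and 0.25, and in Dox (-) against MEF -0.21 and -0.30. Within a gene the last exon was lower than the first by a median of 0.32 in Dox (+) against Dox (-) and of 0.35 against MEF, while Dox (-) against MEF gave 0.06. Relative to the other libraries, Dox (+) thus had more of its reads toward the 5′ ends of these genes. No such value over all genes is given here, and the part of this balance in the differences was not tested.

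The order of the 45 levels was much the same in all libraries. Spearman's rho between libraries was 0.96 for MEF and Dox (-), 0.91 for MEF and Dox (+) and 0.95 for Dox (-) and Dox (+), across 45 genes that share exon lengths in each pair.

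The remaining nuclear subunits had values near those of the 45 genes. Of 34 such genes, Dox (+) exceeded Dox (-) for 33, with a median of 0.63. None passed 2-fold downward, where 11.1% of all genes did, and 5 passed 2-fold upward (14.7%, beside 10.8% of all genes). These were Ndufb4 (42.0, 46.5 and 115 RPKM in MEF, Dox (-) and Dox (+)), Ndufa7 (469, 449 and 1101 RPKM), Ndufa13 (473, 551 and 1171 RPKM), all of complex I, and Atp5g1 (314, 174 and 368 RPKM) and Atp5d (478, 398 and 798 RPKM) of ATP synthase. Other genes share 28.5% of the 50-base windows of Ndufa13, 18.3% of those of Ndufb4 and 11.1% of those of Atp5g1. Against MEF the median was 0.25, with 5 genes past 2-fold upward (14.7%, beside 20.2% of all genes). In that comparison 1 gene was past 2-fold downward (2.94%, beside 8.98% of all genes). Dox (-) against MEF gave -0.28, with 2 genes past 2-fold downward (5.88%, beside 7.93%) and none upward (beside 17.3%). Cox7a2l, which joins complexes III and IV into supercomplexes, was the 1 gene without a higher level in Dox (+) than in Dox (-). It had 388 RPKM in MEF, 146 in Dox (-) and 144 in Dox (+). The log2 difference between the last 2 was -0.01, and 0.07 with reads summed over exons. By the highest exon both knock-in libraries were 1.41 to 1.42 below MEF on the log2 scale. Other genes share 13.8% of the 50-base windows of Cox7a2l.

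Assembly factors, the proteins that build the complexes without staying in them, differed less evenly. For 36 of 43 such genes Dox (+) exceeded Dox (-), with a median of 0.52, and 5 passed 2-fold upward (11.6%, beside 10.8% of all genes). They were Cox10, which makes heme a for complex IV (23.2, 21.3 and 55.1 RPKM), the complex I factors Ndufaf3 (113, 53.1 and 114 RPKM) and Nubpl (80 RPKM in MEF, 33.0 in Dox (-) and 67.5 in Dox (+)), and the complex III factors Uqcc2 (738, 569.8 and 1205 RPKM) and Uqcc3 (34.5, 20.8 and 41.8 RPKM). The complex IV factor Cox20, with 193, 149.7 and 87.2 RPKM, had the lowest difference of the list, -0.77 in Dox (+) against Dox (-), but 84.8% of its 50-base windows are shared with other genes. The 4 complex II factors had a median of 0.15 and the 12 complex I factors one of 0.65. Against MEF the median of the 43 genes was 0.17, below the all-gene median of 0.27.

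**Figure D4:**
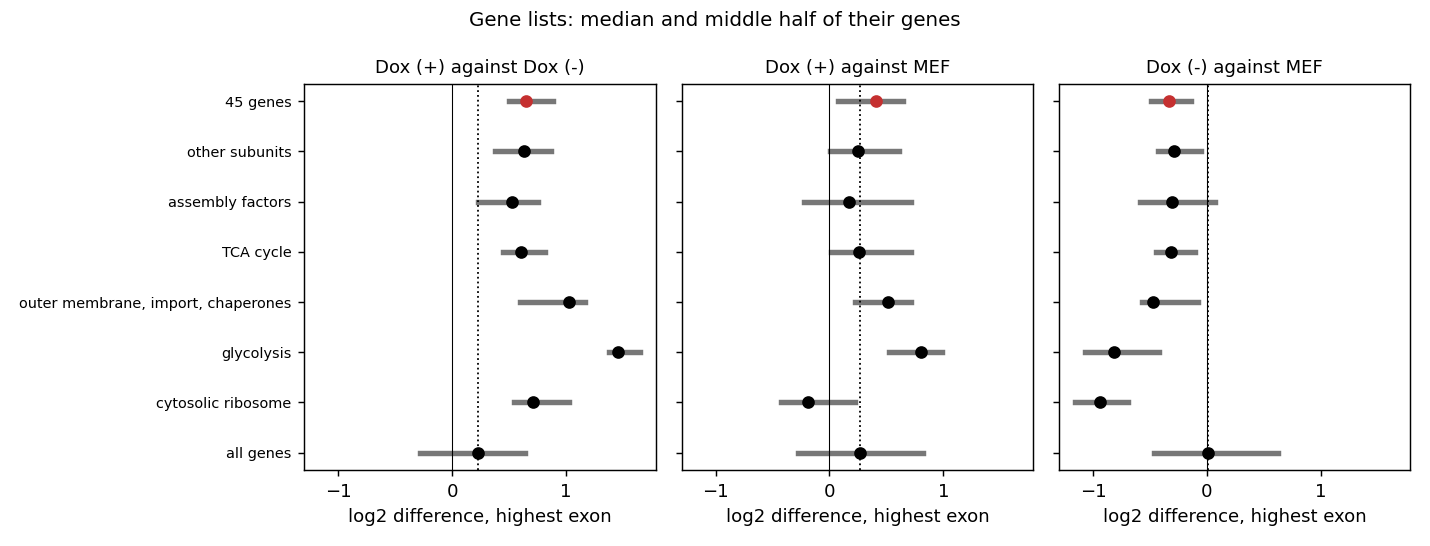
Median (point) and middle 50% (bar) of the log2 difference of each gene list, from the highest exon, in the 3 comparisons, with a dotted line at the median of all genes. In Dox (+) against Dox (-) the 45 genes (0.65), the other subunits (0.63), the assembly factors (0.52) and the tricarboxylic acid (TCA) cycle genes (0.61) lie near each other, with all genes at 0.23. Above the 45 genes lie the cytosolic ribosome (0.71), the outer membrane, import and chaperone genes (1.03) and glycolysis (1.45).

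Tissue isoforms of several subunits are made by paired genes, a common form and a form typical of muscle, heart, lung, testis or low oxygen. Cox4i2, Cox6a2, Cox7a1 and Ndufa4l2 each differed more between libraries than their common partner. Cox4i2, the lung and low-oxygen form of Cox4i1, had 3.37 RPKM in MEF, 8.42 in Dox (-) and 46.3 in Dox (+), resting on 20, 50 and 173 reads, which made it 0.149%, 0.411% and 1.44% of the Cox4i1 level. Cox6a2, the muscle form of Cox6a1, had 1.95, 2.93 and 22.7 RPKM, or 0.38%, 0.452% and 1.91% of Cox6a1. Cox7a1, the muscle form of Cox7a2, had 7.32, 13.5 and 34.7 RPKM, or 0.638%, 1.48% and 2.78%. For these 3 genes Dox (+) was the highest library and MEF the lowest, yet the common form made up nearly all of each pair.

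Ndufa4l2, the low-oxygen relative of Ndufa4, differed across all 3 libraries. It had 83.8 RPKM in MEF, 215 in Dox (-) and 567 in Dox (+), 2.64-fold above Dox (-) (2.397 to 2.91) and 6.77-fold above MEF (5.89 to 7.81), while Ndufa4 itself was below MEF in both knock-in libraries. Ndufa4l2 thus went from 4.19% of the Ndufa4 level in MEF to 14.5% in Dox (-) and 38.9% in Dox (+). Summed over exons these shares were 1.99%, 7.04% and 19.2%.

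Cox6b2, the testis form of Cox6b1, was high in both knock-in libraries, with 50.0 RPKM in MEF, 488 in Dox (-) and 669 in Dox (+) on an exon of 20 bases. It was 13.4-fold above MEF in Dox (+) (9.88 to 18.6), and its share of the Cox6b1 level was 2.8%, 34.1% and 29.4%. With reads summed over exons that share was only 1.21%, 15.8% and 11.9%. Passage, line and handling differ with the library here and cannot be told apart. Cox7b2, Cyct and Slc25a31, testis forms, stayed below 1 RPKM in every library, and Cox8b and Cox8c had no listed exon. Of the ADP/ATP carriers that export the product of ATP synthase, Slc25a4 had 2236, 1681 and 1784 RPKM and Slc25a5 415, 279.5 and 500.1 RPKM. Slc25a4, the muscle and heart form, was thus the higher gene in each library, at 539%, 602% and 357% of Slc25a5. With reads summed over exons it was at 174%, 200.3% and 126%. Other genes share 33.8% of the 50-base windows of Slc25a5 and none of those of Slc25a4, so the level of Slc25a5 and these ratios are uncertain.

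**Figure D5:**
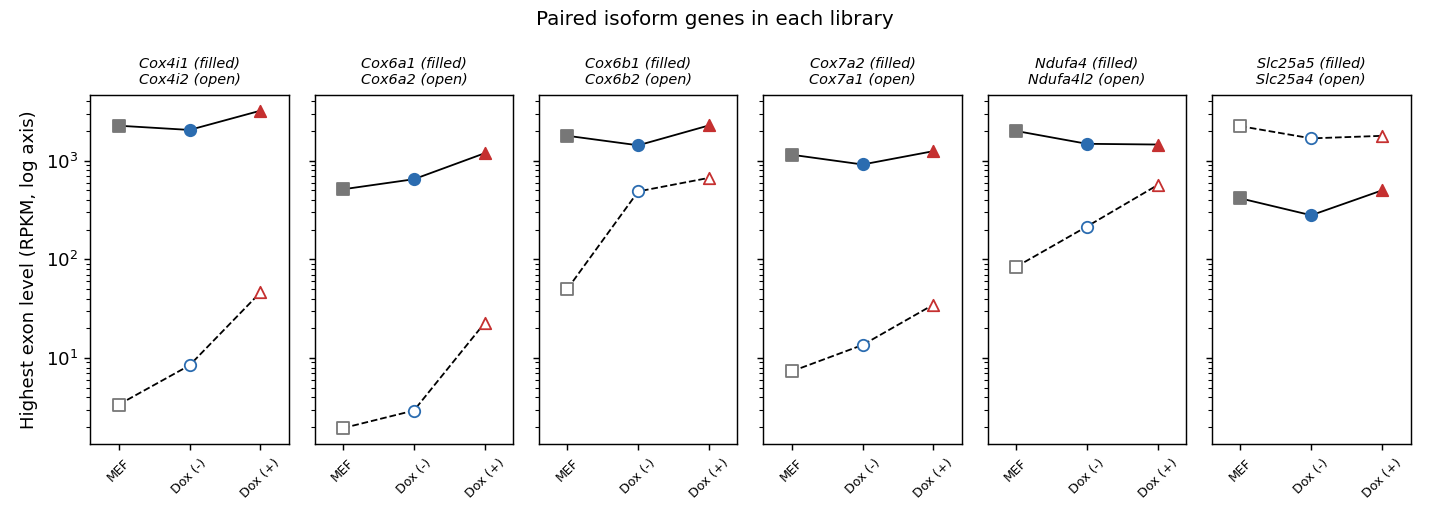
Levels of 6 pairs of isoform genes in the MEF (grey), Dox (-) (blue) and Dox (+) (red) library, as highest exon RPKM on a log axis, with filled symbols for the common form and open symbols for the tissue form. Ndufa4l2 reached 38.9% of Ndufa4 in Dox (+), while Cox4i2, Cox6a2 and Cox7a1 stayed between 1.44% and 2.78% of their partners.

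Of the 3 coactivators that drive mitochondrial biogenesis, Ppargc1a and Ppargc1b were hardly detected. Ppargc1a was listed at 0.0439 RPKM in MEF, with 0.91 in Dox (-) and 2.39 in Dox (+), and its highest exons held 5 and 16 reads in the latter 2. Ppargc1b had 0.165, 1.46 and 2.4 RPKM. Pprc1, the third member of that family, was expressed at 165, 243 and 262 RPKM on an exon of 17 bases, and its reads summed over exons differed by -0.04 between Dox (+) and Dox (-) on the log2 scale.

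Of the 6 transcription factors examined, Myc alone passed 2-fold upward between Dox (-) and Dox (+) (16.7%, beside 10.8% of all genes). Myc had 55.3 RPKM in MEF, 48.0 in Dox (-) and 129 in Dox (+), a fold of 2.69 (2.32 to 3.14). Esrra, the orphan nuclear receptor that works with PGC-1 proteins, had 23.4, 54.8 and 72.4 RPKM, a fold of 1.32 over Dox (-) (1.16 to 1.51) and of 3.09 over MEF (2.60 to 3.69). Nrf1 had 257, 229 and 448 RPKM, but on an exon of 7 bases, and 0.65 on the log2 scale with exons summed. Gabpa had 82.3, 92.6 and 101 RPKM, Gabpb1 63.8, 96.8 and 118 RPKM and Yy1 224, 248 and 309.6 RPKM, with differences of 0.12, 0.28 and 0.32 that came to -0.25, -0.01 and 0.12 with exons summed.

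Transcription of mitochondrial DNA needs the packaging factor Tfam, the polymerase Polrmt and the initiation factor Tfb2m, while Tfb1m methylates mitochondrial ribosomal RNA. Tfam had 289.7 RPKM in MEF, 216 in Dox (-) and 252 in Dox (+), Polrmt 39.4, 74.2 and 71.6 RPKM, Tfb2m 27.3, 23.8 and 21.96 RPKM, and Tfb1m 31.8, 13.0 and 17.3 RPKM. None was past 2-fold between Dox (+) and Dox (-), where 10.8% of all genes were higher and 11.1% lower. Tfb1m was more than 2-fold lower in Dox (-) than in MEF, 1 of these 4 genes (25%, beside 7.93% of all genes). The 13 protein-coding genes of mitochondrial DNA had no listed exon, so the mitochondrial share of each complex was not analysed here.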

How the data were processed

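Per the labels, RNA was selected for poly(A) and sequenced as 1 library per condition. The authors aligned reads to mm10 with TopHat2 2.0.10, counted them per exon with bedtools and deposited RPKM values, that is, counts per kb of exon scaled to the aligned reads of the library. Whether counting used strand is not given in the sources used here, so overlapping genes can share reads. Columns were assigned to libraries by name, 1 column matched no label and was not used, and primary melanocytes were not analysed here.

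Exons were matched to GENCODE release M21 (228132 of 234718, with 226463 in the gene classes used). A gene's level was its highest exon RPKM. Genes counted as higher or lower above 10 RPKM in at least 1 of 2 libraries and past 2-fold, without a pseudocount. Log2 differences added 1 RPKM. Reads were recovered with a whole-number depth per library (97.2% to 97.4% of low exons whole within 0.05 reads), and folds with intervals are from the exon of highest mean level (95%, exact binomial, counting error only). The steps were tested on simulated data.

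Members and lists were chosen with earlier results of these data known, and the glycolysis and ribosome lists after the values were seen. Genes named are, per complex, those with the largest and smallest difference of Dox (+) from Dox (-), the highest level or a difference past 2-fold, further members where they show how a complex varies, every regulator and isoform pair, and other subunits and assembly factors past 2-fold. Cox7a2l was named after its values were seen. Alternatives changed the pseudocount, exon choice, thresholds and scaling. Python 3.11.15, pandas 2.3.3, NumPy 2.4.6, SciPy 1.17.1 and matplotlib 3.10.9 were used.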

Additional observations from a re-analysis of the deposited data

How the results depend on the processing

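With the libraries rescaled by the median ratio of expressed genes, the median difference of the 45 genes in Dox (+) against Dox (-) went from 0.65 to 0.37, the count of genes past 2-fold upward from 7 to 1, and that count in Dox (+) against MEF from 3 to 1. In each case the 1 gene left was Ndufs7. With a fold threshold of 4 both counts were 0. Under the pseudocounts of 0.1 and 5 RPKM, the same exon in every library, summed reads, exons of at least 100 bp and, chosen after seeing the data, the 21 genes with no shared window, the medians ran from 0.62 to 0.67, from 0.28 to 0.43 and from -0.35 to -0.33. With summed reads the counts were 5 and 4, with Cox7c, Atp5b and Atp5o lost and Uqcrc1 gained against Dox (-), and Cyc1 gained against MEF. With the same exon in every library Cox7c replaced Uqcrq against MEF. The shares of all genes past 2-fold given above are from the main settings, and none is given here under these changes. The planned comparisons with primary melanocytes were not run. No paired analysis was possible because there was 1 library per condition. Short exons, shared windows, the 5′ and 3′ balance of the 45 genes in Dox (+) and the absence of replicates limit every value.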

Other observations

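Other mitochondrial gene lists were also higher in Dox (+) than in Dox (-) by their medians. Of 16 genes for tricarboxylic acid cycle and pyruvate dehydrogenase enzymes, Dox (+) exceeded Dox (-) for 15, with a median log2 difference of 0.61, beside 0.26 against MEF and -0.31 for Dox (-) against MEF. Of 10 genes for outer membrane channels, protein import and chaperones, Dox (+) exceeded Dox (-) for all 10, past 2-fold for 5 (50%, beside 10.8% of all genes), with a median of 1.03 beside 0.65 for the 45 genes. The 5 were Vdac2, Tomm20, Tomm22, Tomm40 and Hspd1, and 42.1% of the 50-base windows of Hspd1 are shared with other genes. For Tomm40, the channel of the import pore, levels were 244, 251 and 589.7 RPKM.

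Lists outside the mitochondrion also differed, and these were chosen after the values were seen. All 13 glycolysis enzymes examined passed 2-fold upward between Dox (-) and Dox (+) (100%, beside 10.8% of all genes), with a median of 1.45, and the median was 0.81 against MEF and -0.81 for Dox (-) against MEF. Of 81 cytosolic ribosomal protein genes above 10 RPKM, Dox (+) exceeded Dox (-) for 79, with a median of 0.71, but the median was -0.19 against MEF and -0.94 for Dox (-) against MEF. By their medians, these lists too were lowest in Dox (-).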
